A study of Homo sapiens with 7 samples.

Results

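The SOXC genes SOX4, SOX11 and SOX12 are a small family of transcription factor genes whose coding sequence lies in a single exon. They were taken by name, and the peaks under their Ensembl IDs were collected from 4 lists of N6-methyladenosine (m6A) peaks of HEK-293T, a cell line derived from human embryonic kidney. The 3 genes stand against 13566 genes with a peak in any list. The study set a chemical capture of m6A, m6A-ORL, beside the antibody method MeRIP-seq, with 2 captured libraries each. In m6A-ORL, fragmented RNA was treated in turn with NO/O2, TDO and a biotin-carrying probe called BA, pulled down on streptavidin and released with DTT. In MeRIP, fragments were bound and eluted with an anti-m6A antibody. The labels give total RNA for m6A-ORL replicate 1 and polyA RNA for m6A-ORL replicate 2 and both MeRIP libraries, so RNA type and replicate cannot be told apart within m6A-ORL. An m6A-ORL mean set against a MeRIP mean therefore also mixes method with RNA type. The labels name no treatment of the living cells, and they do not state whether the replicates are separate cultures, so the spread between libraries may be technical.

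SOXC proteins bind DNA through a high-mobility-group box and activate transcription in neural and mesenchymal progenitors, where SOX4 and SOX11 have overlapping roles in the mouse. SOX12 is the weaker activator of the family in work on the mouse proteins. The m6A mark is placed on pre-mRNA by the METTL3-METTL14 methyltransferase, is common in long exons and around stop codons, and is bound by YTH-domain proteins that shorten the life of many mRNAs.

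The genes were chosen by name as a family, with the peak numbers of SOX4, SOX11 and SOX12 in the 4 lists known. The peak numbers and covered lengths below are therefore descriptions without a test. The labels list 3 inputs, 1 for MeRIP and 1 for each m6A-ORL replicate, which were not analysed here. Both MeRIP lists may therefore share an input. A peak list gives no expression level, so less methylation and less RNA cannot be told apart. Read depth is unknown, and the number of peaks limits the precision. The lists held 11022 and 7661 peaks for m6A-ORL replicates 1 and 2, and 20760 and 20216 peaks for MeRIP replicates 1 and 2. Median peak widths were 142 and 149 nt in the m6A-ORL lists, against 211 nt in each MeRIP list. ALB, HBB, PTPRC, CD3E and MYH6, markers of other cell types, had no peak under a named ID in any list.

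SOX4 and SOX12 had peaks in all 4 lists, and SOX11 had a peak in none. Of all genes with a peak in any list, 15.8% had peaks in all 4. In both SOX4 and SOX12 the antibody peaks were few and very long, and the chemical method listed more and shorter peaks, most of whose length lay within them. The m6A-ORL lists thus held more SOX4 and SOX12 peaks than the MeRIP lists while covering less of each gene. This combination, in each m6A-ORL list against any MeRIP list, was found for 2.90% of the 2138 genes with peaks in all 4 lists.

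**Figure D1:**
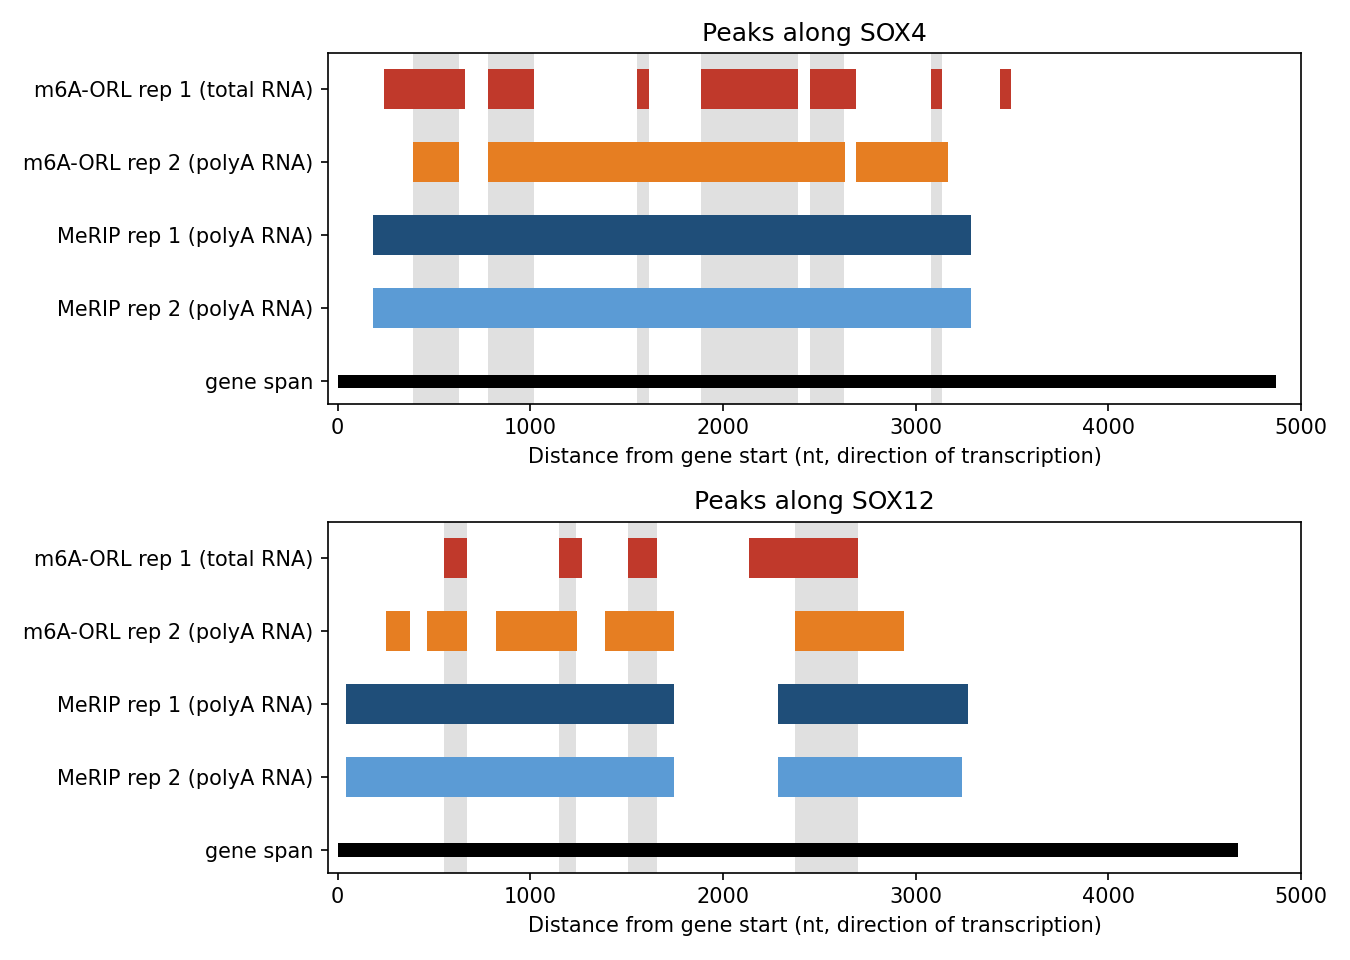
Peaks of SOX4 (top) and SOX12 (bottom) in each library, plotted as distance in nt from the RefSeq gene start in the direction of transcription. Bars are peaks, the black bar is the gene span and grey bands mark stretches under a peak in all 4 lists. The MeRIP lists hold 1 peak of 3106 nt in SOX4, over which m6A-ORL replicate 1 has 6 peaks and replicate 2 has 3.

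SOX4 (ENSG00000124766) lies on the plus strand of hg38 chr6:21593751-21598619, a span of 4869 nt in RefSeq. It had 7 peaks in m6A-ORL replicate 1 and 3 in replicate 2, against 1 in each MeRIP library. These are means of 5 ± 2.83 peaks for m6A-ORL and 1 ± 0 for MeRIP (SD, n = 2 each). The numbers of the methods did not overlap, a pattern of more peaks in each m6A-ORL list shared by 4.82% of genes with peaks in all 4 lists. The spread within m6A-ORL was large, and without m6A-ORL replicate 1 the difference was 2 peaks, against 4 with it and 6 without m6A-ORL replicate 2.

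The single MeRIP peak of SOX4 had the same position in both lists, chr6:21593932-21597037, which is 182 to 3287 nt from the gene start. Its width of 3106 nt was exceeded by 17 peaks (0.0819%) of MeRIP replicate 1 and 21 peaks (0.104%) of replicate 2. The authors' score, read from its values as some form of p-value, was listed as 0 for it in both. That value is shared by 287 and 308 peaks of these lists. Identical boundaries were not the rule between the MeRIP lists, in which 16.9% of replicate 1 peaks had an exact match in replicate 2.

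In m6A-ORL replicate 1 the first SOX4 peak ran from 242 to 660 nt from the gene start and the second from 779 to 1018 nt. The third, of 61 nt, began at 1555 nt. The fourth, from 1884 to 2391 nt, was the widest of them at 508 nt and had the smallest score, 2.5e-21. It placed 629th of the list by score. The next peak ran from 2451 to 2690 nt, and the last pair, of 61 nt each, began at 3078 and 3436 nt. The 3 peaks of 61 nt had scores from 0.00021 to 0.00046, the weakest of SOX4 in that list.

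In m6A-ORL replicate 2 the SOX4 peaks ran from 391 to 630 nt, from 779 to 2630 nt and from 2690 to 3167 nt. The middle peak, chr6:21594529-21596380, was 1852 nt wide and was the widest of all 7661 peaks in that list. Its score of 1e-35 placed 70th. It covered the replicate 1 peaks that begin at 779, 1555 and 1884 nt completely, and most of the one that begins at 2451 nt. Both libraries therefore had their best-scored SOX4 peak over the stretch from 1884 to 2391 nt.

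By length, SOX4 peaks covered 1590 and 2570 nt in m6A-ORL replicates 1 and 2, against 3106 nt in each MeRIP library. The means were 2080 ± 693 nt for m6A-ORL and 3106 ± 0 nt for MeRIP (SD, n = 2 each). The covered lengths did not overlap between methods, as for 78.0% of genes with peaks in all 4 lists, so a shorter m6A-ORL length was the usual state. The m6A-ORL to MeRIP ratio of mean covered length was 0.67 in SOX4 against a median of 0.325 over the 2138 genes, whose upper quartile was 0.59. The difference was -1026 nt with all libraries, and -536 nt without m6A-ORL replicate 1, which leaves polyA RNA only. SOX4 ranked high in every list by this measure, with more covered length in 37 genes (0.514%) of m6A-ORL replicate 1, 7 genes (0.156%) of replicate 2, and 169 (1.73%) and 160 (1.66%) of the MeRIP lists.

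Almost all of the m6A-ORL peak length in SOX4 was inside the antibody peak. In m6A-ORL replicate 1, 1529 of 1590 nt (96.2%) lay there, and in replicate 2 all 2570 nt. The median over genes with peaks in all 4 lists was 84.6% for replicate 1 and 62.7% for replicate 2. These medians are not matched for MeRIP length, and the MeRIP peak covered 63.8% of the SOX4 span. The exception was the last peak of replicate 1, chr6:21597186-21597246, which began after the MeRIP peak had ended. Read the other way, m6A-ORL replicates 1 and 2 covered 49.2% and 82.7% of the MeRIP peak, against medians of 19.5% and 10.5%. Those medians are not matched for length either.

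The m6A-ORL libraries shared 1291 nt of SOX4, which is 81.2% of the replicate 1 length and 50.2% of the replicate 2 length. The corresponding medians over the 2138 genes were 0%, with upper quartiles of 30.9% and 33.7%. Those genes were not matched for length. Their median covered length was 269 nt in m6A-ORL replicate 1 and 211 nt in replicate 2, far below that of SOX4. The same 1291 nt were under a peak in all 4 lists. They formed 7 stretches, the longest from 1884 to 2391 nt and the shortest a single base where peaks of the m6A-ORL lists met. Inside the MeRIP peak, 298 nt were in neither m6A-ORL list, at its start, its end and between 661 and 778 nt. The last 1373 nt of the gene held no peak in any list.

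**Figure D2:**
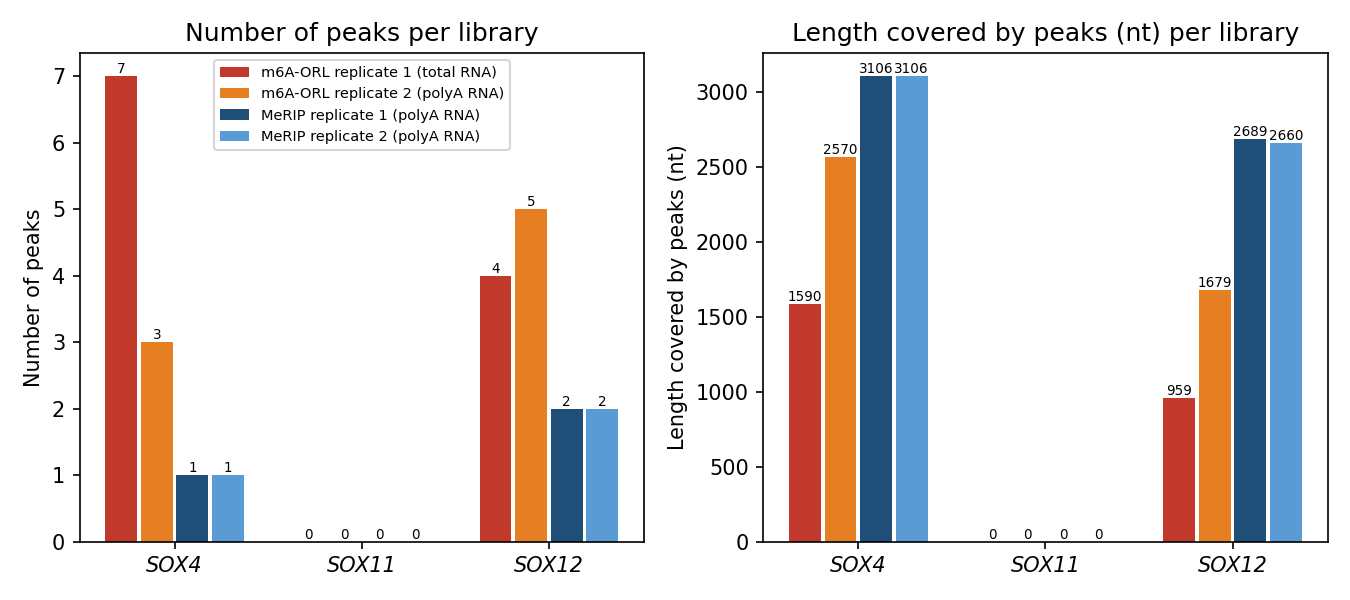
Number of peaks (left) and length covered by peaks in nt (right) for SOX4, SOX11 and SOX12, 1 bar per library with its value above it. For SOX4 and SOX12 the m6A-ORL bars are above the MeRIP bars on the left and below them on the right, and SOX11 is at 0 throughout.

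The opposite strand of SOX4 held a peak of its own by MeRIP. It is listed under ENSG00000283480 on the minus strand, spans 2 blocks and 209 nt in all, and had scores of 1.6e-83 and 6.3e-82 in MeRIP replicates 1 and 2. Its block of 168 nt, chr6:21595426-21595593, lies 1676 to 1843 nt from the SOX4 start. Neither m6A-ORL list had a minus-strand peak in the SOX4 span. On the SOX4 strand, m6A-ORL replicate 2 and both MeRIP lists had a peak over the whole block and m6A-ORL replicate 1 had none. The labels do not say whether reads were assigned by strand, so the share of this signal that belongs to either gene was not tested.

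SOX12 (ENSG00000177732) lies on the plus strand of hg38 chr20:325552-330224, a span of 4673 nt. It had 4 and 5 peaks in m6A-ORL replicates 1 and 2, against 2 in each MeRIP library. The means were 4.5 ± 0.707 peaks for m6A-ORL and 2 ± 0 for MeRIP (SD, n = 2 each). The numbers did not overlap, and 4.82% of genes with peaks in all 4 lists had more peaks in each m6A-ORL list. In SOX12 this order of the methods depended on weak peaks. With only peaks of a score of at most 1e-05 the difference between the means was 1 peak instead of 2.5, and at 1e-10 it turned to -0.5, with 1 and 2 m6A-ORL peaks against 2 in each MeRIP list. For SOX4 the difference of 4 peaks kept its sign in both cases, at 2.5 and 1.5 peaks. All MeRIP peaks of both genes had a score of 0 and pass any such cut. To keep the sign, the m6A-ORL mean had to stay above 1 in SOX4 and above 2 in SOX12, so the genes are not compared alike. With all lists limited to the length of the shortest, SOX4 had 4 and 3 m6A-ORL peaks, against 1 in each MeRIP list, a difference of 2.5. In this setting SOX12 kept its 4 and 5 m6A-ORL peaks, against 2 in each MeRIP list, and its difference of 2.5.

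The first MeRIP peak of SOX12 was the same in both lists, chr20:325595-327297, with a width of 1703 nt. The second began 2284 nt from the gene start in both and ended at 3269 nt in replicate 1 and at 3240 nt in replicate 2, so that it was 986 and 957 nt wide. All had a listed score of 0. Between the antibody peaks of SOX12 was a gap of 537 nt.

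The first MeRIP peak began 44 nt after the RefSeq start of SOX12, nearer to the gene start than the 182 nt of SOX4. The RefSeq sequence of GRCh38.p14 at this edge, chr20:325572-325601 on the plus strand, is shown because it holds the only peak bases of either gene inside the promoter window given by RefSeq for these genes, which runs from 250 nt before to 50 nt after the start. Capitals mark the 7 bases inside the MeRIP peaks, and no m6A-ORL peak reached this window. Different peak edges of SOX12 lay at least 29 nt apart, so the 7 bases do not place signal to the base.
SOX12 peak edge: gggcggggagcggcgcgcgcgggCCGCGGC

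In m6A-ORL replicate 1 the SOX12 peaks ran from 552 to 671, from 1149 to 1268, from 1507 to 1657 and from 2135 to 2702 nt from the gene start. In m6A-ORL replicate 2 they ran from 253 to 373, from 462 to 671, from 820 to 1239, from 1388 to 1746 and from 2373 to 2941 nt. Each replicate 1 peak overlapped a replicate 2 peak, and only the first replicate 2 peak had no partner.

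The best-scored SOX12 peak was not the same one in the m6A-ORL libraries. In replicate 1 it was the last, with a score of 1e-14 and place 1007 by score. In replicate 2 it was the fourth, chr20:326939-327297, with a score of 1.3e-49 and place 43. That peak ended at the same base as the first MeRIP peak. The 26 peak edges of SOX12 in the 4 lists lay at 21 positions at least 29 nt apart, so a shared end is not a match to the base. The replicate 1 peak over the same stretch had a score of 1.1e-09.

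SOX12 peaks covered 959 and 1679 nt in m6A-ORL replicates 1 and 2, against 2689 and 2660 nt in MeRIP replicates 1 and 2. The means were 1319 ± 509 nt for m6A-ORL and 2674 ± 20.5 nt for MeRIP (SD, n = 2 each), a ratio of 0.493. As in SOX4, m6A-ORL replicate 2 covered more than replicate 1, although SOX4 had more peaks in replicate 1. The m6A-ORL order by peak number thus differed between the genes and the order by length did not.

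Within SOX12, 810 of 959 nt (84.5%) of m6A-ORL replicate 1 and all 1679 nt of replicate 2 lay inside MeRIP peaks. The medians over the 2138 genes, not matched for MeRIP length, were 84.6% and 62.7%, so the replicate 1 value was a typical one. The 149 nt outside belonged to the last replicate 1 peak, which began in the gap between the antibody peaks. The m6A-ORL libraries covered 30.1% and 62.4% of the MeRIP length in replicates 1 and 2. They shared 692 nt, 72.2% of the replicate 1 length and 41.2% of the replicate 2 length. These 692 nt were again in all 4 lists and formed 4 stretches, the longest of 330 nt from 2373 to 2702 nt. In 5 stretches, 892 nt in all, a MeRIP list had a peak and neither m6A-ORL library did. They were the 5′ part from 44 to 252 nt, the 3′ part from 2942 to 3269 nt and 3 between them. Those 3 ran from 374 to 461, from 672 to 819 and from 1269 to 1387 nt. The last 1404 nt of SOX12 had no peak in any list.

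Over both genes, 18 of 19 m6A-ORL peaks (94.7%, exact Clopper-Pearson 95% interval 74 to 99.9) were overlapped by a MeRIP peak on the same strand. The interval covers counting error only and treats peaks as independent. They share 2 genes, and most stretches listed by both m6A-ORL libraries count once for each, so the peaks are not separate trials. The share was 10 of 11 in m6A-ORL replicate 1 and 8 of 8 in replicate 2. Over every gene listed in all 4 libraries it was 77% and 63.4%. Those genes were not matched to SOX4 and SOX12 in MeRIP length.

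Most wide antibody peaks had fewer m6A-ORL peaks under them than the one in SOX4. Among MeRIP replicate 1 peaks of at least 1000 nt, counted in the 2138 genes listed in every library (567 peaks), the median was 1 overlapping peak in either m6A-ORL library. At least 3 were found for 87 of them (15.3%) in m6A-ORL replicate 1 and for 78 (13.8%) in replicate 2. The SOX4 peak had 6 and 3, and 6 was the most that any of these peaks had in m6A-ORL replicate 1. The first SOX12 peak had 3 and 4. Widths above 1000 nt were not matched, and a wider peak leaves more room for overlaps. The SOX4 peak, at 3106 nt, was exceeded in width by only 17 peaks of MeRIP replicate 1.

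**Figure D3:**
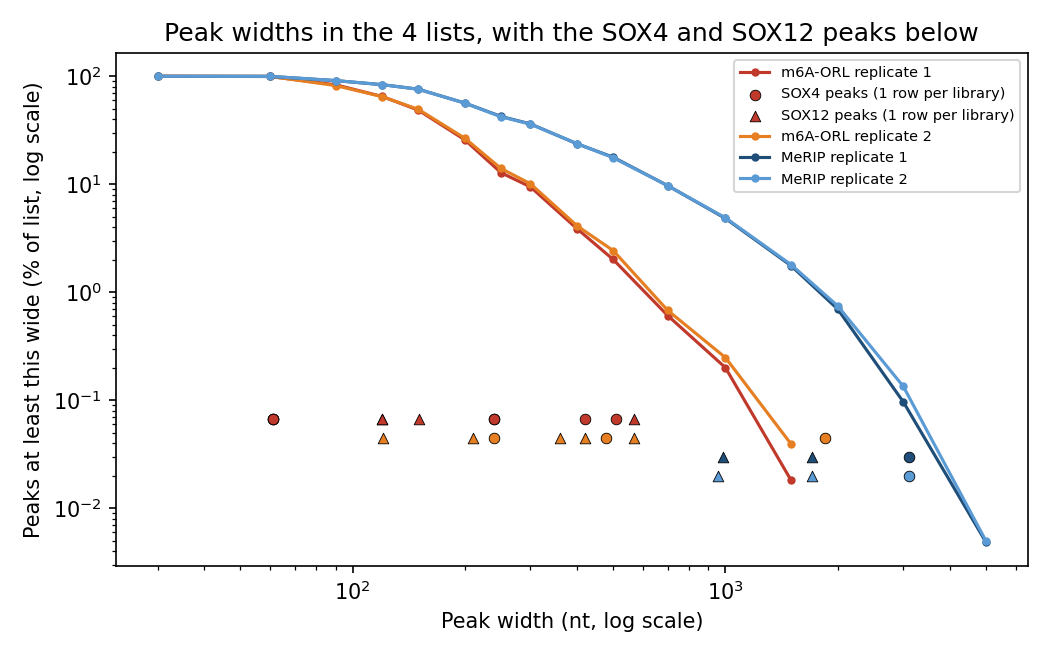
Share of peaks in each list that are at least as wide as the value on the horizontal axis (both axes logarithmic), with the widths of the SOX4 (circles) and SOX12 (triangles) peaks as symbols below, 1 row per library, whose height carries no value. The m6A-ORL peaks of these genes range from 61 to 1852 nt and the MeRIP peaks from 957 to 3106 nt.

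SOX11 (ENSG00000176887), at hg38 chr2:5692384-5701385 with a span of 9002 nt, had no peak under its ID in m6A-ORL replicates 1 and 2 or in MeRIP replicates 1 and 2. No peak of either strand lay in its span, and none of any gene within 100000 nt of it. The same distance around SOX12 held 7 and 3 peaks of other genes by m6A-ORL and 8 and 5 by MeRIP. Around SOX4 the only other peak was the minus-strand MeRIP peak. Expression of SOX11 was not measured, so an unmethylated mRNA and an mRNA at a low level cannot be told apart.

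Among 17 other SOX genes, 7 had a named peak in any list. Of these 7, 1 had peaks in both m6A-ORL lists and 7 in both MeRIP lists, beside 19.3% and 65.9% of all genes with a peak in any list. The spans of SOX7 and SOX15 held 6 and 5 peaks, summed over the lists, under IDs that got no name, and these were not counted. SOX9, a SOXE factor of cartilage and testis, was the 1 gene with peaks in all 4 lists. It had 1 peak in each m6A-ORL list, against 2 and 1 by MeRIP, and 179 and 91 nt covered by m6A-ORL against 537 and 418 nt by MeRIP. SOX2, the pluripotency factor and like the SOXC genes a single-exon gene, had 0 and 2 m6A-ORL peaks, against 1 peak in each MeRIP list, of 1466 and 1496 nt. SOX8, a relative of SOX9, had no m6A-ORL peak, against 3 in each MeRIP list. SOX13, a SOXD gene, had 1 and 0 m6A-ORL peaks, against 2 in each MeRIP list. SOX2, SOX8 and SOX13 lacked a peak in at least 1 m6A-ORL list, so they could not have more peaks in each than by MeRIP. SOX9 could and did not, where 4.82% of genes with peaks in all 4 lists did.

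Of 19 other transcription factor genes with a single coding exon, 15 had a named peak. Of these 15, 7 had peaks in all 4 lists, beside 15.8% of all genes with a peak in any list. Among these 7, all covered less length in each m6A-ORL list than by MeRIP, which is the usual state (78.0% of genes with peaks in all 4 lists). More peaks in each m6A-ORL list were found for 4 of the 7 (JUN, JUND, POU3F3 and FOXD1), beside 4.82%. The 7 had 1 or 2 peaks in each MeRIP list, where the upper quartile over the 2138 genes was 4. The shares are therefore not matched for MeRIP peak number, and the list was chosen with earlier results of these data known. JUN, a subunit of AP-1, had 5 and 3 m6A-ORL peaks over 1655 and 2192 nt, against 2 peaks over 2761 nt in each MeRIP list. JUND, its relative, had 3 m6A-ORL peaks in each list over 386 and 1253 nt, against 2 over 1604 nt in each MeRIP list. FOXC1, a forkhead factor, had 4 and 2 m6A-ORL peaks over 902 and 811 nt, against 2 over 2787 and 2847 nt. POU3F3, a POU factor of neural progenitors, had 3 in each m6A-ORL list over 420 and 479 nt, against 2 over 2797 and 2886 nt. JUN was the nearest of the 4 named genes to SOX4 in covered length.

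**Figure D4:**
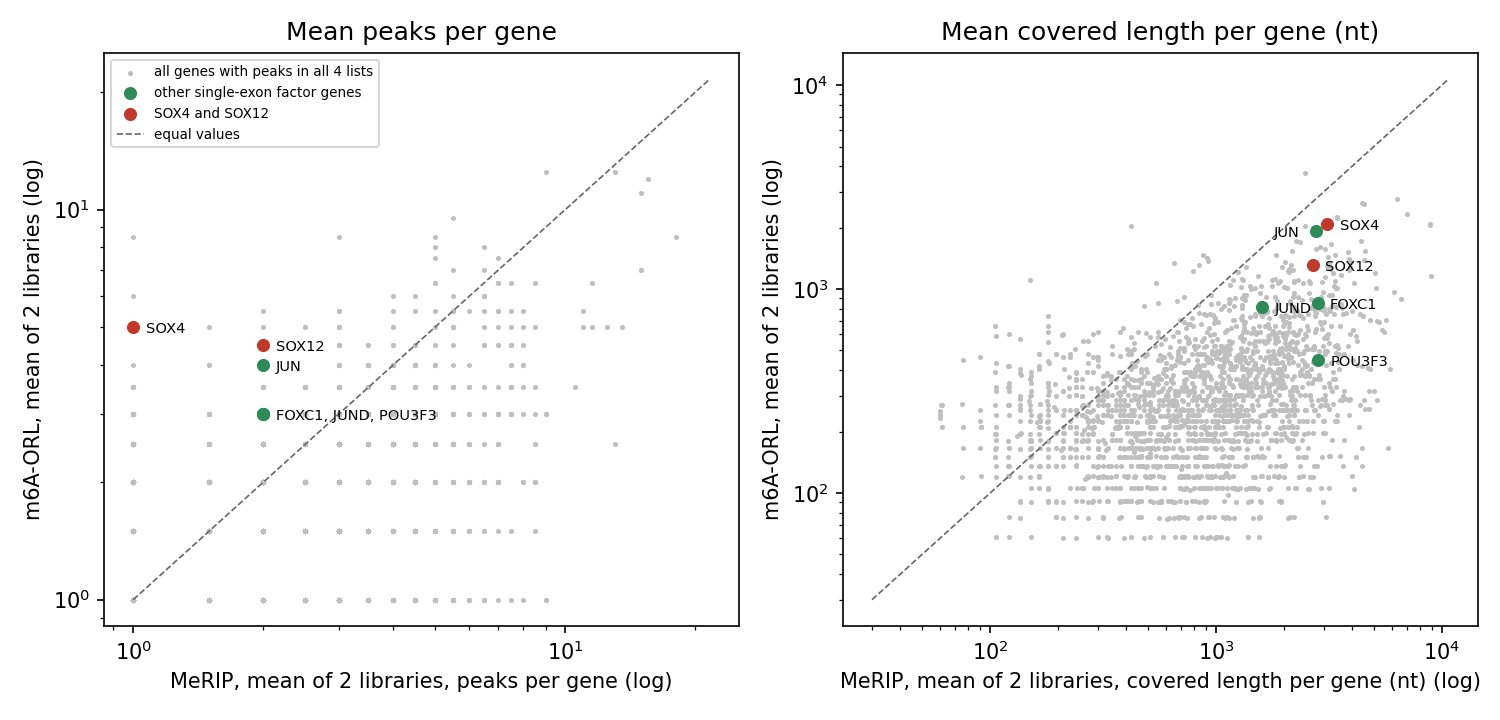
Mean number of peaks (left) and mean covered length in nt (right) per gene, m6A-ORL against MeRIP, each a mean of 2 libraries on logarithmic axes, for the 2138 genes with peaks in all 4 lists. SOX4 and SOX12 (red) lie above the dashed line of equal values by peak number and below it by covered length, and JUN, 1 of the 4 green single-exon factor genes, lies close to SOX4 by length.

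Of 11 genes for partners, regulators and reported targets of SOXC proteins, 7 had a named peak in any list. Of these 7, 2 had peaks in both m6A-ORL lists and 6 in both MeRIP lists, beside the 19.3% and 65.9% of all genes. The spans of CTNNB1 and SDCBP held 4 and 1 peaks, summed over the lists, under unnamed IDs, which were not counted. MEX3A, an RNA-binding protein gene, had 2 m6A-ORL peaks in each list, against 3 in each MeRIP list. TEAD2, a Hippo pathway factor reported as a SOXC target in the mouse, had 0 and 2 m6A-ORL peaks, against 2 in each MeRIP list. DICER1, the microRNA-processing nuclease, had 5 and 0 m6A-ORL peaks, against 6 and 5 by MeRIP. SMAD3, a mediator of TGF-beta signals, had 1 and 0 m6A-ORL peaks, against 5 and 6 by MeRIP. The m6A-ORL peaks of DICER1 and SMAD3 came from the total RNA library alone, and those of TEAD2 from the polyA library alone.

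The named genes most like SOX4 by the summed absolute difference in peak number over the 4 libraries were SLIT2, an axon guidance ligand, and YWHAG, a 14-3-3 protein gene, with sums of 3, and JUN with 4. JUN was 1 of 11 named genes with that sum and is given because its covered lengths differed least from those of SOX4. SLIT2 had 6 and 3 m6A-ORL peaks over 1476 and 1743 nt, against 2 in each MeRIP list over 2910 and 2880 nt. YWHAG had 5 and 2 over 722 and 569 nt, against 1 in each MeRIP list over 1136 and 1196 nt. Those most like SOX12 were SLC3A2, the heavy chain of amino acid transporters, with a sum of 1, and RBM15B, a component of the m6A writer complex, and TMEM250 with sums of 2. They are given from 10 named genes with that sum by the same rule on covered length. RBM15B had 3 and 6 m6A-ORL peaks over 1081 and 1505 nt, against 2 in each MeRIP list over 3088 and 3118 nt. SLC3A2 was close to SOX12 in peak number but not in length, with 634 and 604 nt by m6A-ORL against 541 and 571 nt by MeRIP.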

How the data were processed

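Each of the 4 captured libraries has a deposited peak list in BED format with position, strand, blocks, Ensembl ID and a score per peak, per the file headers. The score, deposited by the authors, is read as a p-value or q-value from its values. The sources used here do not say which program called the peaks or at what cut-off. Per the submitters' processing notes, hg38, HOMER, STAR and Trim Galore were used, with no role named. Samples were grouped by title. Exact duplicate lines were removed (2 and 1 in m6A-ORL replicates 1 and 2, 4 and 3 in MeRIP replicates 1 and 2). Intervals were handled in Python 3.11.15, with SciPy 1.17.1 for the binomial interval, and the interval functions were tested on simulated data.

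The members were matched by Ensembl ID and checked by position. Other IDs were named when at least 90% of their peak bases lay in the RefSeq span of 1 gene (GRCh38.p14), on its strand where RefSeq gives one, and an ID kept a name claimed by several IDs when its covered bases were at least 3 times those of the next. This named 10323 of 13566 IDs (76.1%). Overlap means at least 1 nt on the same strand, and covered length counts each base once per list. Placement in coding sequence needs exon annotation and was not analysed here.

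The members and lists were chosen with earlier results of these data known. Besides the members, the text names up to 4 genes a list with the most peaks and the 3 named genes most like SOX4 and SOX12. FOXD1 was named after its values were seen. No test was run, since the smallest exact p for 4 libraries is 0.33. Alternatives were stricter scores, equal list lengths, joining peaks within 100 nt, assignment by span, a larger overlap and leaving out each library.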

Additional observations from a re-analysis of the deposited data

How the results depend on the processing

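Of 72 values recomputed under the alternatives, 64 moved by no more than the spread between replicates (for the count of genes, by no more than 1.5 times), 7 moved further and 1 changed sign. Many of the 64 could not have moved further. Leaving out 1 of 2 libraries shifts a difference of means by no more than the replicate spread used. The SOX11 values of 0 could not change under stricter scores, equal lengths, joining or omission. The count of 64 is therefore no measure of stability. The change of sign was in SOX12, whose m6A-ORL minus MeRIP difference of 2.5 peaks was -0.5 with scores of at most 1e-10. It was 1 with scores of at most 1e-05, and its covered-length difference of -1356 nt was -1926 nt at 1e-10. The number of genes with more peaks in each m6A-ORL list than in any MeRIP list was 103, and 34 at 1e-05, 4 at 1e-10 and 159 with lists of equal length. When each library was left out in turn it ran from 127 to 605 (522 without m6A-ORL replicate 1 and 605 without m6A-ORL replicate 2), with fewer lists then having to meet the condition. Over the same omissions the SOX4 difference ran from 2 to 6 peaks and from -1516 to -536 nt, the SOX12 difference from 2 to 3 peaks and from -1716 to -996 nt, and the overlapped share from 90.9% to 100%. SOX11 was at 0 in all alternatives. No paired analysis was possible because the values come from no test and the replicate numbers mark different RNA types. Depth is unknown, so a missing peak cannot be read as missing methylation.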
